A study of Mus musculus with 64 samples.

Results

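Ketamine was compared with saline in the nucleus accumbens (NAc) of the mouse, using 4 ketamine libraries and 8 saline libraries, 12 of the 64 libraries of the series. The members were chosen by the tissue and treatment in their labels, and the titles divide the saline libraries into 2 sets of 4, called I and II. The mice were adult C57BL/6N males of 8 to 10 weeks with no genetic change, which received a single intraperitoneal injection of 10 ml/kg, either of ketamine at 20 mg/kg or of saline, and were killed 2 h later. Haloperidol and risperidone, other drugs of the study, were dissolved in saline that held a drop of HCl. The sources used here do not say whether a saline set received it. The tissue was dissected from slices, so the RNA comes from all cells of the region, and a change in the number of cells of a type cannot be told apart from a change in RNA per cell. The labels do not tie libraries to mice, and p-values therefore measure only the spread between these libraries, which may be technical.

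Ketamine blocks the NMDA type of glutamate receptor and is used as an anaesthetic, as a rapid antidepressant and as a psychotomimetic in animal models. The NAc is the ventral part of the striatum, built mainly from inhibitory medium spiny neurons that receive glutamate from the cortex and dopamine from the midbrain. Drugs and stress reach its genes by several routes, among them calcium and cAMP signals that switch on immediate early genes such as Fos, and corticosterone, which enters cells and acts through the glucocorticoid receptor, a transcription factor, on genes such as Sgk1, Tsc22d3 and Fkbp5.

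Abundance was measured in ribo-depleted total RNA as FPKM, the number of fragments scaled by transcript length and by the mapped fragments of the library, and was summed over the transcripts of each gene. Differences are given on the scale of log2(FPKM + 1), which understates changes of low genes, as ketamine minus saline with the standard error (SE) and the Benjamini-Hochberg adjusted p of limma over all genes or transcripts tested. The estimated depth was 1.98 to 2.71 gigabases in the ketamine libraries, 2.42 to 3.26 in saline set II and 2.03 to 3.03 in saline set I. The ketamine libraries listed 107099 to 110059 transcripts with an FPKM above 0, saline set II 109231 to 110063 and saline set I 85397 to 87827, so the comparison with all 8 saline libraries was repeated with the 4 of set II, which share this property with ketamine. The saline sets differed from each other in 3314 of 29045 genes (11.4%), of which 1987 were higher and 1327 lower in set II. With each library rescaled to the same 75th percentile these numbers were 2545 and 923. Medium spiny neuron markers summed to 713.9 to 981.0 FPKM in the ketamine libraries, 845.6 to 1110.1 in saline set II and 905.9 to 1066.2 in saline set I, against 71.7 to 163.1 in the prefrontal cortex (PFCx) of saline set II.

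Against all 8 saline libraries, 37 of 30686 genes (0.121%) passed an adjusted p of 0.05, 14 higher (0.0456%) and 23 lower (0.075%) after ketamine. Against saline set II, 264 of 34225 genes (0.771%) passed, 58 higher (0.169%) and 206 lower (0.602%). With each library rescaled to the same 75th percentile, 44 were higher and 205 lower. At an unadjusted p of 0.05 by limma, 2118 genes were higher and 1161 lower against set II, or 1567 and 1457 after rescaling. Protein-coding transcripts held 28.9 to 33.8% of FPKM after ketamine, 24 to 28.2% in set II and 25.5 to 32.9% in set I. The part of these shares in the results was not tested. The 2 comparisons share the ketamine and the set II libraries, and their values are given side by side. Called genes were split by whether they were small RNA genes or held one within their borders. Of the higher genes, 12 of 14 and 44 of 58 were neither. Most genes tested were neither as well. Of the 34225 tested against set II, 588 were snRNA, 836 snoRNA, 1084 miRNA and 343 miscellaneous RNA genes. Another 1526 held a small RNA gene. The lower genes were mostly small RNA genes, 18 of 23 and 181 of 206, and a further 3 and 14 held one. With short transcripts left out, 10 genes passed against all saline, 8 of them higher, and 25 against set II, 12 of them higher.

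The promoters of Sgk1, Fkbp5 and Fos, and small RNAs that were lower after ketamine against saline set II, are shown here for reference. Promoter sequences are the 250 bases before the start of the transcript named, read on the strand of the gene from RefSeq on GRCm38.p6, at chr10:21994416-21994665 and chr10:21881934-21882183 on the plus strand for the 2 starts of Sgk1, chr17:28486150-28486399 on the minus strand for Fkbp5 and chr12:85473640-85473889 on the plus strand for Fos. Capitals mark matches, on either strand, to the motifs named after the sequences.
Sgk1 before ENSMUST00000020145: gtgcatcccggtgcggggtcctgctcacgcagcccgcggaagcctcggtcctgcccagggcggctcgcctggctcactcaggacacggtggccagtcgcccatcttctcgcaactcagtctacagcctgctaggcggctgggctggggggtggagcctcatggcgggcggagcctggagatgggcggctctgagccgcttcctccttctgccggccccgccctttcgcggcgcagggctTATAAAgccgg
Sgk1 before ENSMUST00000120509: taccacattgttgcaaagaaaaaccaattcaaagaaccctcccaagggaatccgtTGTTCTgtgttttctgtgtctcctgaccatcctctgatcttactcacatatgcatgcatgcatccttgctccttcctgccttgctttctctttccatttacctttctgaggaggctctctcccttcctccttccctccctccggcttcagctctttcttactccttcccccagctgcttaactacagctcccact
Fkbp5 before ENSMUST00000079413: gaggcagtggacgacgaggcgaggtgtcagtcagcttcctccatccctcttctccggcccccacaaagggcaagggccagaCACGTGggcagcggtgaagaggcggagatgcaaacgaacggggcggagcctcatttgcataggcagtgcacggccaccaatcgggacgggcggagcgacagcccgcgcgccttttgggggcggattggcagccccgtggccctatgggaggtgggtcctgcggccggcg
Fos before ENSMUST00000021674: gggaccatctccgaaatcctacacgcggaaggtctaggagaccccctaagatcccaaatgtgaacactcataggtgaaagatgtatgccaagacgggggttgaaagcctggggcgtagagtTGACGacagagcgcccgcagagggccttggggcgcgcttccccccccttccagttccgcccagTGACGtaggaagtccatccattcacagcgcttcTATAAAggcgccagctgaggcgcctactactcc
The share of all 32851 RefSeq promoter windows that hold a motif is given beside it. The core hexamer of a glucocorticoid response element, AGAACA, was in 16.1% of windows, and here it was in the Sgk1 window before ENSMUST00000120509, on the minus strand at 195 bases before the start, and not in the other 3. The short form of the cAMP response element, TGACG, was in 17.8% of windows and stood at 129 and 66 bases before the start of Fos. The whole cAMP response element, which contains the short form, was in 1.55% of windows and in none of these 4. The TATA box, searched as TATAAA, was in 12.4% of windows, and it stood at 33 bases before the start of Fos and at 11 bases before that of ENSMUST00000020145. The E-box was searched as CACGTG, was in 6.02% of windows, and stood at 169 bases before the start of Fkbp5. A CArG box was in 1.47% of windows and in none of these 4. The GC box, searched as GGGCGG and left in lower case, was in 32.7% of windows, with 4 matches before ENSMUST00000020145, 3 before Fkbp5 and 1 before Fos. The full palindromic element, with the hexamer on both strands 3 bases apart, was in 0.00913% of windows and in none of these 4.

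Small RNAs of the spliceosome and of RNA modification are shown as the GENCODE vM21 transcripts on GRCm38, written with T. Rnu1a1 (chr11:87422867-87423030, plus strand) and Rnu1b1 (chr3:96359953-96360117, minus strand) encode U1, the RNA that pairs with the 5′ splice site. Capitals in this pair mark the bases that differ between them, and the 2 genes were 95.8% identical. Snora28 (chr12:111540941-111541067, plus strand) and Snora57 (chr19:8888538-8888685, minus strand) encode H/ACA RNAs, which guide the change of uridine to pseudouridine, and capitals in Snora57 mark the ACA box near its 3′ end.
Rnu1a1: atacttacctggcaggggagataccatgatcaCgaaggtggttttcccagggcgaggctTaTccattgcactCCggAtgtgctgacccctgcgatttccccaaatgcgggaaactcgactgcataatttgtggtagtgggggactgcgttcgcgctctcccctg
Rnu1b1: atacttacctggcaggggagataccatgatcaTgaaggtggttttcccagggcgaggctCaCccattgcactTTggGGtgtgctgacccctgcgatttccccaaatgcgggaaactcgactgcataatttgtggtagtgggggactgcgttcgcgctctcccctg
Snora28: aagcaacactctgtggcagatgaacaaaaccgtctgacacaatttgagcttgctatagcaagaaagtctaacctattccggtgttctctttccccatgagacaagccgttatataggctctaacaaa
Snora57: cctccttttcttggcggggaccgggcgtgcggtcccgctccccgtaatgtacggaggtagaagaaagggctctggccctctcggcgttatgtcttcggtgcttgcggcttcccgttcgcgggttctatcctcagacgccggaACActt
Snora28 and Snora57 lie in single places with no identical copy among the small RNA genes tested, whereas Rnu1a1 has copies.

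Sgk1, a kinase induced by serum and glucocorticoids, had the lowest p among the higher genes against all saline. Its level was 39.7, 38.9, 37.8 and 36.8 FPKM in the 4 ketamine libraries, 18.6, 18.3, 21.2 and 20.3 in saline set II and 16.1, 18.2, 21.6 and 17.6 in saline set I. All ketamine libraries lay above all saline libraries. The mean rose from 19 ± 1.91 (SD, n = 8) to 38.3 ± 1.27 FPKM (SD, n = 4), a difference of 0.98 (SE 0.0787, adjusted p 0.000329) by limma and of 0.93 against set II (SE 0.0667, adjusted p 0.000177). The two-sided exact permutation test gave p = 0.00202 against all saline and p = 0.0286 against set II, each the smallest p that the design allows.

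Tsc22d3, the glucocorticoid-induced leucine zipper, and Fkbp5, a co-chaperone that lowers the affinity of the glucocorticoid receptor for its hormone, rose as well. Tsc22d3 was at 22.1, 19.6, 18.9 and 17.9 FPKM after ketamine, 8.88, 9.93, 10 and 11 in saline set II and 9.82, 11.2, 13.3 and 10.6 in saline set I. Its difference was 0.84 (SE 0.0918, adjusted p 0.00231) against all saline and 0.91 (SE 0.0847, adjusted p 0.000955) against set II by limma. Fkbp5 was at 8.22, 8.04, 9.07 and 8.45 FPKM after ketamine, 5.70, 5.15, 5.11 and 5.59 in set II and 5.28, 4.91, 5.48 and 4.78 in set I. For both genes the groups did not overlap. The difference of Fkbp5 was 0.60 (SE 0.0612, adjusted p 0.00158) and 0.56 (SE 0.0635, adjusted p 0.00338). Txnip, an inhibitor of thioredoxin that also limits glucose uptake, was at 6.14 to 6.55 FPKM after ketamine, 2.72 to 4.64 in set II and 3.10 to 4.32 in set I. It rose against all saline by 0.63 (adjusted p 0.0431) and had a difference of 0.60 against set II (adjusted p 0.0744).

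Fos, the immediate early transcription factor subunit of AP-1, was at 7.55, 5.79, 5.67 and 6.82 FPKM after ketamine, 3.40, 1.59, 2.73 and 2.02 in saline set II and 2.79, 2.51, 1.87 and 2.40 in saline set I. The lowest ketamine library lay above the highest saline library. The difference of Fos was 1.14 in both comparisons (SE 0.129, adjusted p 0.00282 against all saline, and SE 0.161, adjusted p 0.0135 against set II, limma). Most of it lay in the full coding transcript ENSMUST00000021674 (chr12:85473890-85477273), which rose from 1.68 ± 0.189 (SD, n = 8) to 4.43 ± 0.849 FPKM (SD, n = 4; difference 1.01, adjusted p 0.00239 over transcripts).

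**Figure D1:**
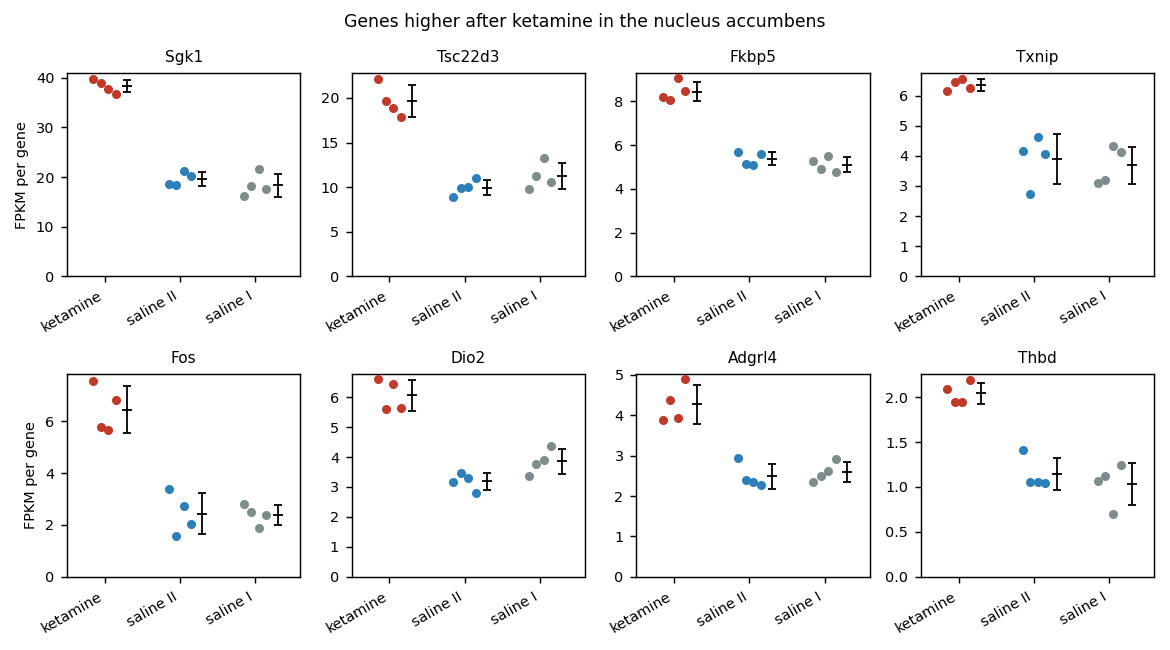
FPKM per gene in each NAc library (points) for 8 genes higher after ketamine, in the ketamine, saline set II and saline set I groups of 4 libraries each, with the mean and SD beside the points. In each panel the 4 ketamine libraries sit above the 8 saline libraries, as for Sgk1 with 36.8 to 39.7 against 16.1 to 21.6 FPKM.

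Other genes named by the rule rose as well. Dio2, the type II deiodinase that turns thyroxine into active thyroid hormone, rose from 2.81 to 4.38 FPKM in saline to 5.61 to 6.60 after ketamine (difference 0.65, adjusted p 0.0117, and 0.75, adjusted p 0.00188, against set II). Adgrl4, an adhesion receptor of endothelial cells, was at 3.88 to 4.90 FPKM against 2.27 to 2.94 in saline (0.57, adjusted p 0.0101, and 0.60, adjusted p 0.0169). Thbd, thrombomodulin of the vessel wall, was at 1.95 to 2.19 FPKM against 0.698 to 1.41 (0.55, adjusted p 0.0197, and 0.51, adjusted p 0.013). The ketamine range of these 3 genes did not overlap that of saline. Zfp386, a zinc finger gene, rose by 0.48 (adjusted p 0.0257) and 0.50 against set II (adjusted p 0.0256), Gm14435 by 0.42 (adjusted p 0.0197) and 0.39 (adjusted p 0.0323), and the noncoding Gm26909 by 0.55 (adjusted p 0.0431) and 0.41 (adjusted p 0.0156). The level of 2810474O19Rik was 3.98 to 4.42 FPKM against 2.61 to 3.34 and passed against all saline only (0.37, adjusted p 0.0431, and 0.33, adjusted p 0.0673, against set II). Every gene called against all saline lay outside the range of the 8 saline libraries. So did 445 of all genes tested in the higher direction (1.45%) and 153 in the lower direction (0.499%).

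The endothelial and mural marker list, the list nearest to Adgrl4 and Thbd, had 10 members, which summed to 40.9 to 48.4 FPKM after ketamine, 42.7 to 50.2 in set II and 43.3 to 49.8 in set I. Of these 0 passed by limma, with 1 higher and 1 lower at an unadjusted p of 0.05 against all saline, and the lowest p belonged to Cldn5, a tight junction gene, at 3.97 to 5.78 FPKM after ketamine and 4.76 to 6.93 in saline (−0.36, adjusted p 0.216), and Slco1a4 (0.19, adjusted p 0.349). Blood markers summed to 33.8 to 60.6 FPKM after ketamine, 40.2 to 71.1 in set II and 74.1 to 101.7 in set I, with a negative difference for 5 of 5 and 0 passing by limma, 2 of them lower at an unadjusted p of 0.05 against all saline. The hemoglobin genes Hba-a1 and Hba-a2 had differences of −0.77 (adjusted p 0.31) and −0.81 (adjusted p 0.314). The counts of both lists stand beside 10.1% of all genes higher and 3.97% lower at that threshold against all saline. The part of blood left in the tissue in any result was not tested.

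The rise at Sgk1 lay in transcripts of the inner start. ENSMUST00000020145 (chr10:21994666-21999903, protein coding) was at 11.6, 9.92, 8.41 and 10.4 FPKM after ketamine, 1.58, 2.43, 2.18 and 2.96 in saline set II and 1.87, 1.25, 0.929 and 1.00 in saline set I. It rose by 2.03 (SE 0.187, adjusted p 0.00239 over transcripts) and 1.76 against set II (SE 0.146, adjusted p 0.00236). The retained-intron transcript ENSMUST00000141218, which starts beside it, rose by 1.51 (adjusted p 0.00989) and 1.38 (adjusted p 0.0414). The long transcript ENSMUST00000120509, which begins at the outer start (chr10:21882184), was at 4.45 to 5.73 FPKM after ketamine against 4.78 to 5.79 and 4.00 to 6.11 in the saline sets, a difference of 0.01 (SE 0.105, adjusted p 0.989). The ketamine range of this transcript lay inside that of saline. Cufflinks divides reads that isoforms share between them, so the levels of the Sgk1 transcripts depend on each other.

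**Figure D2:**
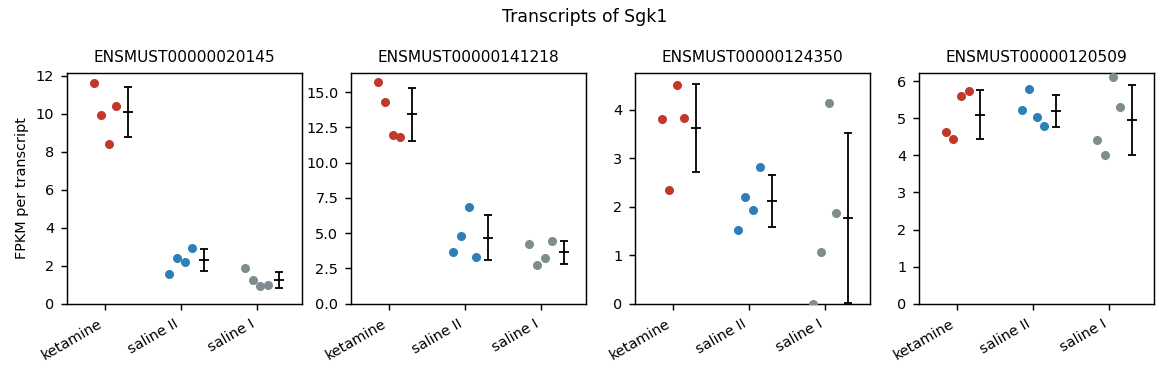
FPKM per transcript in each NAc library (points) for 4 transcripts of Sgk1, in the ketamine, saline set II and saline set I groups of 4 libraries each, with the mean and SD beside the points. ENSMUST00000020145 and ENSMUST00000141218 are higher in all 4 ketamine libraries, ENSMUST00000124350 overlaps between groups, and ENSMUST00000120509 stays between 4.00 and 6.11 FPKM in all 12 libraries.

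Over single transcripts, 19 of 73574 (0.0258%) passed against all saline, 11 higher and 8 lower, and 175 of 78630 (0.223%) against set II, 25 higher and 150 lower. Of transcripts whose gene did not pass, the rule for naming gave 1 that was higher and 1 that was lower. ENSMUST00000117611 of Pld3, a lysosomal nuclease, was at 10.5, 4.62, 5.89 and 3.73 FPKM after ketamine and at 0.00103 to 1.70 in saline (difference 2.40, SE 0.308, adjusted p 0.0215, and 2.05, adjusted p 0.127, against set II). The retained-intron transcript ENSMUST00000126720 of Matk, a kinase that inhibits Src family kinases, was at 0.307 FPKM or less in the ketamine libraries and at 1.07 to 2.68 in saline. It fell by 1.34 (SE 0.165, adjusted p 0.0181) and by 1.5 against set II (adjusted p 0.00171).

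The glucocorticoid-responsive list held 4 genes called higher against all saline and 7 against set II. Of its 33 genes, 32 were tested against all saline, of which 4 were higher and 0 lower (0.0456% and 0.075% of all genes tested), and 7 of 33 were higher and 0 lower against set II (0.169% and 0.602%). At an unadjusted p of 0.05, 21 were higher and 1 lower against all saline, beside 10.1% and 3.97% of all genes, and 20 higher and 0 lower against set II, beside 6.19% and 3.39%. The median difference over the list was 0.26 and 0.28, against 0.05 and 0.02 over all genes tested. The list was drawn up with results of these data known, and it is no independent evidence of a direction.

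Besides Sgk1, Tsc22d3, Fkbp5 and Txnip, the members called were found against set II alone. Bcl6, a transcriptional repressor, was at 4.10 to 4.54 FPKM after ketamine against 2.49 to 2.92 in set II and 2.94 to 3.55 in set I (difference 0.54 against set II, adjusted p 0.00459, and 0.44 against all saline, adjusted p 0.0533). Slc2a1, the glucose transporter of the blood-brain barrier, whose gene holds a microRNA gene, was at 13.5 to 16.8 FPKM against 8.11 to 10.1 in set II and 11.2 to 13.3 in set I (0.68, adjusted p 0.00755, and 0.51, adjusted p 0.137). Arrdc2, an arrestin-like protein, had a difference of 0.61 (adjusted p 0.0381) and 0.51 (adjusted p 0.109). Zbtb16, a zinc finger repressor, had 0.65 (adjusted p 0.0485) and 0.63 (adjusted p 0.0667). In these 4 genes all ketamine libraries were above all of set II, as in 4.13% of all genes tested.

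Other members were higher at an unadjusted p without passing, among them Nfkbia (difference 0.27, adjusted p 0.279, and 0.36, adjusted p 0.11, against set II), the cell cycle inhibitor Cdkn1a (0.25, adjusted p 0.226, and 0.32, adjusted p 0.188) and Klf9 (0.22, adjusted p 0.223, and 0.28, adjusted p 0.154). Per1, a clock gene that also responds to glucocorticoids, had 0.17 (adjusted p 0.404) and 0.20 (adjusted p 0.474). The metallothionein Mt1 had a difference of −0.51 (adjusted p 0.347) and −0.20 (adjusted p 0.856), with 10.6 to 17.5 FPKM after ketamine, 12.5 to 27.4 in set II and 22.2 to 30.1 in set I. The receptor itself, Nr3c1, was at 10.6 to 12.3 FPKM after ketamine and 9.87 to 13.0 in saline (0.05, adjusted p 0.772). Of the 28 members with a RefSeq promoter window, 5 held AGAACA (17.9%), beside 18.2% of 27025 genes.

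**Figure D3:**
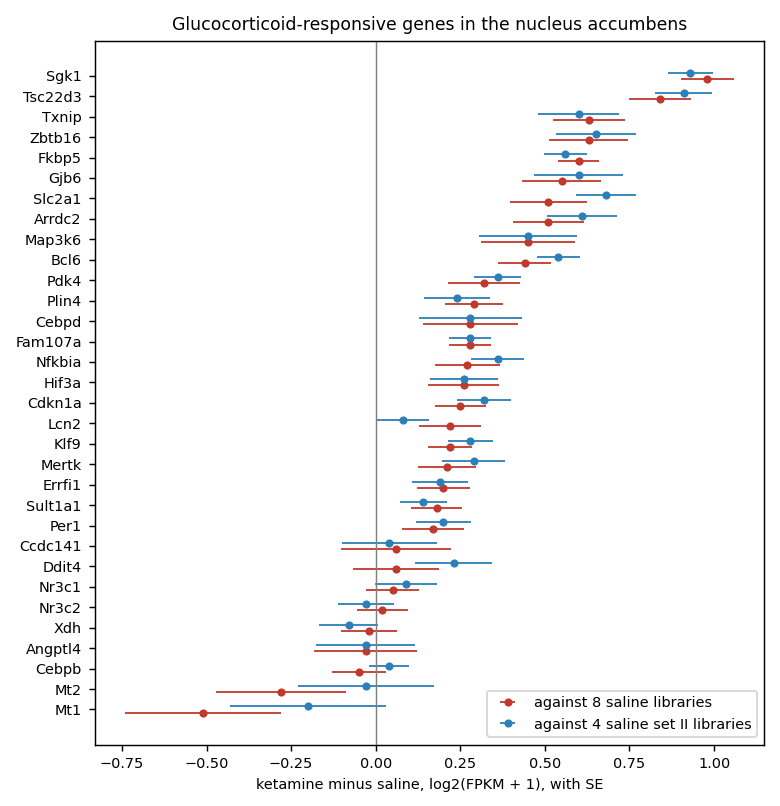
Difference of log2(FPKM + 1), ketamine minus saline, with SE, for the 32 tested members of the glucocorticoid-responsive list, against 8 saline libraries (red) and against the 4 of set II (blue). Most members lie to the right of 0, from 0.98 for Sgk1 down to −0.51 for Mt1, with medians of 0.26 and 0.28.

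The ketamine level was also compared with that after the antidepressants venlafaxine and mianserin. Their labels name no set, and they listed 108515 to 110556 and 108989 to 110000 transcripts above 0, within or near the ranges of ketamine and saline set II. Venlafaxine (16 mg/kg) and mianserin (20 mg/kg) were given in the same volume and for the same time, and 234 of 34656 genes (0.675%) differed between ketamine and venlafaxine, 57 higher and 177 lower after ketamine, or 26 and 173 with each library rescaled to the same 75th percentile. Between ketamine and mianserin 269 of 34655 (0.776%) differed, 49 higher and 220 lower. These comparisons use the same 4 ketamine libraries as those with saline. Sgk1 was at 38.3 ± 1.27 FPKM after ketamine, 24.0 ± 2.01 after venlafaxine and 62.9 ± 6.73 after mianserin (SD, n = 4 each), so ketamine was higher than venlafaxine by 0.66 (adjusted p 0.00384) and lower than mianserin with a difference of −0.70 (adjusted p 0.00486). Txnip was at 6.35 ± 0.187, 4.45 ± 0.989 and 13.9 ± 1.02 FPKM (SD, n = 4 each), a difference of 0.45 (adjusted p 0.22) and −1.02 (adjusted p 0.00012). Tsc22d3 was higher after ketamine than after venlafaxine (0.96, adjusted p 0.000336), and its difference from mianserin was 0.42 (SE 0.106, adjusted p 0.167), at 19.6 ± 1.8 against 14.5 ± 1.97 FPKM (SD, n = 4 each). Fos was higher than after venlafaxine by 1.32 (adjusted p 0.000375) and its difference from mianserin was 0.11 (SE 0.117, adjusted p 0.836), at 6.46 ± 0.892 against 5.91 ± 0.897 FPKM (SD, n = 4 each). By mean level of Sgk1 the order was saline, venlafaxine, ketamine and mianserin, where the step from saline to venlafaxine was not tested. For Fos, the ketamine and mianserin means differed by less than the SD of either.

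Among the immediate early transcription factors Fos was the member that passed, 1 of 24 in each comparison, and 7 were higher and 0 lower at an unadjusted p of 0.05 in each, beside 10.1% and 3.97% of all genes against all saline and 6.19% and 3.39% against set II. The medians were 0.07 and 0.14. Of 14 dual-specificity MAP kinase phosphatases tested, which switch off the kinases upstream of these genes, 0 passed against all saline (4 higher and 0 lower at an unadjusted p of 0.05 by limma) and 1, Dusp4, against set II. Dusp4 was at 1.24 to 1.37 FPKM after ketamine, 0.754 to 0.893 in set II and 0.647 to 1.14 in set I (0.32, adjusted p 0.0384, and 0.29, adjusted p 0.165, against all saline). Of 32 activity-induced effector genes 0 passed by limma, with 7 higher and 2 lower at an unadjusted p against all saline and 8 and 2 against set II, led by Plk3 (0.22, adjusted p 0.23) and Tiparp (0.34, adjusted p 0.226).

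Genes that encode the receptors ketamine acts on did not pass. Of the 7 NMDA receptor subunits 0 passed by limma and 1 was higher at an unadjusted p in each comparison. Of all genes, 10.1% were higher and 3.97% lower at this threshold of 0.05 against all saline. Against set II these shares were 6.19% and 3.39%, and the counts below are to be read beside them. Grin3a was at 3.45 to 4.06 FPKM after ketamine and 2.62 to 3.47 in saline (0.15, adjusted p 0.349), and Grin2a at 25.5 to 30.1 against 23.6 to 28.2 (0.09, adjusted p 0.524), with overlapping groups. Of 16 other glutamate receptor genes 0 passed, with 2 higher and 1 lower at an unadjusted p against all saline and 3 and 1 against set II. The metabotropic receptor gene Grm4 was at 5.47 to 6.89 FPKM against 7.05 to 9.09 in saline, without overlap but short of the threshold (−0.35, adjusted p 0.138), and Gria2 had a difference of 0.15 (adjusted p 0.308). Of 22 postsynaptic and translation-control genes 0 passed, with 2 higher at an unadjusted p against all saline and 5 against set II, among them Dlg4 (0.28, adjusted p 0.249) and the kinase gene Gsk3b (0.14, adjusted p 0.298).

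Of 14 genes for other binding targets of ketamine, 0 passed against all saline and 1 against set II, Hcn2, a subunit of the channel for the hyperpolarization-activated current. Hcn2 was at 8.81, 9.07, 9.19 and 7.90 FPKM after ketamine, 6.07, 6.35, 5.51 and 5.21 in set II and 9.45, 6.38, 10 and 7.08 in set I. Ketamine lay above set II and inside the range of set I, and the difference was 0.52 (adjusted p 0.016) against set II and 0.31 (adjusted p 0.359) against all saline. Of 25 potassium and HCN channel genes 2 passed against set II, Hcn2 and Kcnn2, a calcium-activated potassium channel, and 0 against all saline (2 higher and 3 lower at an unadjusted p by limma). Among all genes, 0.169% were called higher against set II. At an unadjusted p of 0.05 against all saline, 10.1% were higher and 3.97% lower. Kcnn2 was at 7.44 to 8.26 FPKM after ketamine against 5.02 to 6.06 in set II and 5.47 to 6.90 in set I (0.44, adjusted p 0.0233, and 0.39, adjusted p 0.0732, against all saline).

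Genes of the medium spiny neuron had mostly lower values after ketamine without passing. Of its 15 markers 14 had a negative difference in each comparison, 0 passed by limma, and 9 were lower at an unadjusted p of 0.05 against all saline and 2 against set II, beside 3.97% and 3.39% of all genes, with medians of −0.24 and −0.18. Adora2a, the adenosine receptor of the indirect pathway, was at 14, 18, 16.5 and 19.5 FPKM after ketamine, 18.3, 22.8, 21.4 and 26.5 in set II and 22.4 to 25.3 in set I (−0.42, adjusted p 0.164, and −0.37, adjusted p 0.379). Scn4b, a sodium channel subunit, had −0.29 in both comparisons (adjusted p 0.237 and 0.406). Of 10 dopamine, adenosine and muscarinic receptor genes tested 0 passed, with 2 lower at an unadjusted p against all saline, Adora2a and Chrm4 (−0.29, adjusted p 0.298). Of 13 neuropeptide precursors tested 0 passed, with 1 higher and 3 lower at an unadjusted p against all saline, led by Pdyn, which encodes prodynorphin (−0.27, adjusted p 0.282), and Vip (0.42, adjusted p 0.31).

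Markers of other cell types are given beside these. Among all genes, 0.169% were called higher against set II. At an unadjusted p of 0.05 against all saline, 10.1% were higher and 3.97% lower. The 12 oligodendrocyte markers summed to 779.3 to 860.4 FPKM after ketamine, 616.5 to 682.0 in set II and 736.7 to 844.7 in set I, and 3 of 12 rose against set II, among them Mal (0.44, adjusted p 0.0145) and Mobp (0.39, adjusted p 0.023), which encode proteins of myelin, while 0 passed against all saline, with 3 higher and 0 lower at an unadjusted p. Cortical projection neuron markers summed to 74.5 to 103.7 FPKM after ketamine, 52.1 to 72.5 in set II, 84.1 to 107.9 in set I and 224.3 to 300.2 in the PFCx of saline set II, with 0 of 10 passing and Rorb (0.26, adjusted p 0.138) and Tbr1 (0.35, adjusted p 0.361) having the lowest p. The ketamine libraries thus lay above saline set II and near saline set I for both lists. The part of these cells in the differences against set II was not tested. Astrocyte markers summed to 366.7 to 404.4, 330.3 to 369.0 and 384.7 to 406.3 FPKM, with 0 of 10 passing, led by Gjb6 (0.55, adjusted p 0.119) and Aqp4 (0.25, adjusted p 0.254). Of the interneuron, microglia, and choroid plexus and ependyma markers 0 passed by limma, with 2 of 8, 1 of 10 and 1 of 7 tested at an unadjusted p of 0.05 against all saline. Slc32a1, Vip, Trem2, C1qa, Folr1 and Foxj1 had the lowest p of these 3 lists, with adjusted p of 0.296 to 0.433.

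The remaining lists held no gene that passed by limma in either comparison. Their counts are to be read beside the 10.1% of all genes that were higher and the 3.97% that were lower at the same threshold against all saline, and the 6.19% that were higher against set II. At an unadjusted p of 0.05 against all saline, 5 of 19 clock genes were higher and 2 lower, among them Dbp (−0.44, adjusted p 0.205). Of 13 Notch target genes 6 were lower and 0 higher, with a median of −0.19, among them Hes5, at 4.01 to 5.51 FPKM against 5.46 to 9.74 in saline (−0.51, adjusted p 0.209), and the ligand gene Dll1 (−0.43, adjusted p 0.212). Of 24 heat shock genes 2 were higher, Dnajb4 (0.26, adjusted p 0.263) and Hspd1 (0.16, adjusted p 0.328). Of 25 SR splicing factors and their regulators 4 were higher, led by Srpk2 (0.22, adjusted p 0.185) and Luc7l (0.23, adjusted p 0.25). Of 24 cholesterol synthesis genes 3 were higher, Fdft1 (0.24, adjusted p 0.226) and Idi1 (0.30, adjusted p 0.266) among them, and 8 against set II. Of 17 RGS regulators 3 were higher, with Rgs7bp (0.16, adjusted p 0.277) and Rgs20 (0.19, adjusted p 0.336) first. Among 13 mitochondrially encoded genes (mt-Co2, 0.24, adjusted p 0.358; mt-Nd1, 0.16, adjusted p 0.369), 9 nuclear-retained noncoding RNAs (Meg3, −0.14, adjusted p 0.375; Snhg11, 0.11, adjusted p 0.378) and the 2 cold-induced genes Cirbp (−0.14, adjusted p 0.5) and Rbm3 (−0.05, adjusted p 0.839), 0 were past an unadjusted p of 0.05 against all saline.

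Dclk1, a microtubule-associated kinase of neurons, was at 109.1, 104.2, 102.9 and 106.3 FPKM after ketamine, 83.8, 86.4, 86.9 and 97.9 in set II and 94.5, 98.3, 93.3 and 110.9 in set I. Ketamine lay above set II and overlapped set I, and the gene did not pass (0.17, SE 0.0753, adjusted p 0.337, and 0.25, adjusted p 0.21, against set II). Its transcripts with the lowest p were ENSMUST00000070418, at 20 to 24.1 FPKM against 15.7 to 16.9 and 12.8 to 19 (0.34, adjusted p 0.424), and ENSMUST00000199585, at 5.37 to 6.45 against 4.64 to 4.75 and 1.00 to 4.07 (0.64, adjusted p 0.525). All ketamine libraries lay above all saline libraries for both transcripts, as 0.878% of all transcripts tested did.

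The fall after ketamine lay in small structured RNAs. Among called snoRNA genes the lowest p against all saline belonged to Snora28, shown above, which guides pseudouridine formation. It was at 6.72, 9.55, 10.4 and 12.5 FPKM after ketamine, 62.9, 53.3, 66.9 and 61.3 in set II and 35.5, 38.4, 34.0 and 45.4 in set I. All ketamine libraries were far below all saline libraries, and set I lay below set II. It fell by 2.22 (SE 0.203, adjusted p 0.000539) and by 2.55 against set II (SE 0.157, adjusted p 6.71e-05). Snora57 was at 48.7, 59.1, 64.7 and 53.5 FPKM, against 162.4 to 216.2 in set II and 196.6 to 376.7 in set I, and fell by 2.05 (adjusted p 0.00158) and by 1.74 (adjusted p 0.000128). For this gene set I had higher levels than set II, the reverse of Snora28. Snora73b fell by 1.68 (adjusted p 0.0101) and by 1.82 (adjusted p 0.00188), and Snora74a, at 0.336 to 2.86 FPKM against 5.79 to 37.3, by 2.88 (adjusted p 0.0197) and by 2.19 (adjusted p 0.016). The share of FPKM in transcripts under 200 bases was 22.1 to 34.8% in ketamine, 28.1 to 41% in set II and 14.7 to 25.6% in set I. Its part in these results was not tested.

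Beside these, Gm28872, a noncoding gene shorter than 200 bases, was at 2.93 to 6 FPKM after ketamine against 26.4 to 38.5 in set II and 16.3 to 22.9 in set I, and fell by 2.44 (adjusted p 0.000539) and by 2.75 (adjusted p 0.000162). Mir5136, a hairpin gene next to Snora57, fell by 1.83 (adjusted p 0.00504) and by 1.67 (adjusted p 0.0377). Rnu5g, a U5 gene, was at 21.9 to 34.4 FPKM against 56.0 to 134.7 in saline and fell by 1.47 (adjusted p 0.0155) and by 1.40 (adjusted p 0.00755). The snRNA gene Gm22710 fell by 1.81 (adjusted p 0.0094) and by 1.43 (adjusted p 0.0132). B930036N10Rik, an antisense gene that holds a small RNA gene, fell by 0.99 (adjusted p 0.0197) and by 0.77 (adjusted p 0.00597).

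U1 RNA and its copies made up a large part of the lower genes. The family was set after the values were seen and so is given without a test of its own. Of its 51 genes tested, 39 were called lower against set II and 3 against all saline. Among all genes these shares were 0.602% and 0.075%. Its members were at least 80% identical to a U1 gene, so they may share reads and 39 is not a count of separate falls. Rnu1b1 was at 17.4, 15, 13 and 15.4 FPKM after ketamine, 147.4, 126.5, 133.5 and 98.9 in set II and 37.3, 57.5, 84.7 and 50.5 in set I. Rnu1a1 was at 170.4, 123.9, 120.4 and 147.9 FPKM after ketamine, 1048.7, 1187.9, 1410.1 and 1270.4 in set II and 208.7, 271.2, 246.9 and 287.1 in set I. Ketamine was the lowest group for both genes, and set I lay closer to ketamine than to set II for Rnu1a1. Rnu1b1 fell by 2.38 (SE 0.327, adjusted p 0.0119) and by 2.97 against set II (SE 0.129, adjusted p 1.05e-05), and Rnu1a1 had −1.99 against all saline (adjusted p 0.209) and fell by 3.12 against set II (SE 0.13, adjusted p 8.24e-06). Gm22042, a U1 copy, fell by 2.43 (adjusted p 0.0197) and by 3.06 (adjusted p 4.23e-05). The copies Gm22068, Gm24305 and Gm26232 fell against set II by 3.09, 3.15 and 2.71 (adjusted p 8.24e-06 each). Of the 39 genes 14 have a copy of identical sequence, and how the authors' tools divided reads between copies is not given in the sources used here, so the family sum is more certain than any single gene.

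Summed over the family, U1 amounted to 1133.4 to 1732.0 FPKM in the ketamine libraries, 10701.6 to 14306.3 in saline set II, 9002.8 to 13424.3 after venlafaxine, 11619.9 to 15346.6 after mianserin and 1811.9 to 2630.9 in saline set I. Ketamine thus lay below the 12 libraries of set II, venlafaxine and mianserin and just below saline set I, from which its range did not overlap. In the PFCx the order was reversed, with 8474.7 to 10799.2 after ketamine and 5058.7 to 5637.0 in saline set II. The members of other families were lower against set II in 10 of 16 genes of U2, which pairs with the branch point, in 8 of 10 of U3, which acts in ribosomal RNA processing, in 3 of 4 of U12 and in 3 of 10 of U5, beside 0.602% of all genes. For U6, the RNA at the catalytic centre, the count was 2 of 176. Its sum was nevertheless lower than in set II, at 46.5 to 77.0 FPKM after ketamine and 86.6 to 112.9 in set II. In set I it was 50.5 to 110.0 FPKM, which overlapped ketamine. Of genes with Snora symbols 24 of 38 were lower, of Snord symbols 15 of 78 and of scaRNA genes, which act on the spliceosomal RNAs, 7 of 31. SCARNA4 was at 9.58 to 12.2 FPKM after ketamine, 77.1 to 96.5 in set II and 17.4 to 27.7 in set I, and fell by 2.9 against set II (adjusted p 8.24e-06). The snoRNA gene Gm22519 was at 1.1 to 1.99 FPKM after ketamine, 19.5 to 29.9 in set II and 0.793 to 2.04 in set I, so that ketamine overlapped set I, and fell by 3.46 against set II (adjusted p 1.05e-05). By class, 77 of 588 snRNA genes (13.1%) and 86 of 836 snoRNA genes (10.3%) were lower against set II, beside 10 of 18376 protein-coding genes. Against all saline these were 6 of 507 snRNA genes (1.18%) and 11 of 754 snoRNA genes (1.46%). The saline sets themselves differed in these classes. In set II, 97 of 480 snRNA genes were higher and 1 lower than in set I, and 141 of 741 snoRNA genes were higher and 18 lower.

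**Figure D4:**
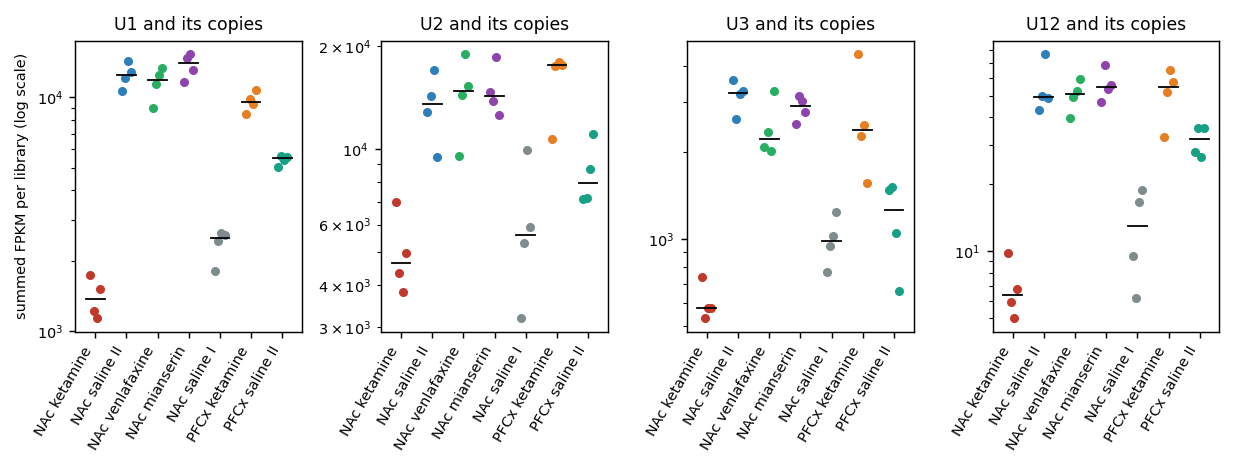
Summed FPKM per library (log scale, points) of the genes of the U1, U2, U3 and U12 families in 7 groups of 4 libraries, with the group median as a line. NAc ketamine lies lowest for U1, at 1133.4 to 1732.0 against 10701.6 to 14306.3 in saline set II, while in the PFCx ketamine lies above saline set II.

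Of 1526 genes tested that hold a small RNA gene, 14 were called lower and 3 higher against set II. Among all genes these shares were 0.602% and 0.169%. Snhg4, without a GENCODE vM21 entry, is outside this count. The 7 snoRNA host genes below were named after their values were seen. They were lower after ketamine against set II, and their differences from set I alone varied in sign. Snhg1, a noncoding host of snoRNAs, was at 58.5 to 110.7 FPKM after ketamine, 592.6 to 755.9 in set II and 34.5 to 99.7 in set I, and fell by 2.98 against set II (adjusted p 4.82e-05). Against set I alone the difference was 0.23 for Snhg1, 0.01 for Ncl, 0.31 for Eif4a1 and 0.12 for Gas5 (adjusted p 0.178 to 0.95), and −0.11 for Rpl10 (adjusted p 0.669), −0.44 for Rps3 (adjusted p 0.0183) and −1.04 for Snhg4 (adjusted p 0.0445). In the comparison with set II, Ncl, which encodes nucleolin, fell by 1.03 (adjusted p 0.000324), Rpl10 by 0.96 (adjusted p 0.00103), the translation factor gene Eif4a1 by 1.07 (adjusted p 0.00641), Gas5 by 0.86 (adjusted p 0.0313), Rps3 by 0.69 (adjusted p 0.0125) and Snhg4 by 1.60 (adjusted p 0.00118). Against all saline these 7 genes had an adjusted p of 0.0514 to 0.605. Among the transcripts of Ncl and Rps3, 1 retained-intron transcript of each passed against set II. ENSMUST00000189504 of Ncl was at 3.89 to 7.88 FPKM after ketamine, 22.3 to 35.0 in set II and 1.94 to 5.15 in set I (−2.25 against set II, adjusted p 0.00385), while the coding ENSMUST00000027438 was at 3.64 to 4.67, 3.82 to 4.53 and 3.35 to 4.09 FPKM (−0.01, adjusted p 0.996). The other 3 retained-intron transcripts of Ncl had differences of 0.05 to 0.31 (adjusted p 0.761 to 0.984). In Rps3 the retained-intron ENSMUST00000128725 was at 11.4 to 16.7 FPKM after ketamine, 29.2 to 37 in set II and 8.73 to 20.1 in set I. It fell by 1.29 against set II (adjusted p 0.00783), and ketamine lay inside the range of set I. Against set II the retained-intron ENSMUST00000128174 had −0.15 (adjusted p 0.926), while the coding ENSMUST00000032998 had 0.10 (adjusted p 0.921).

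The let-7 hairpin genes went the other way. The let-7 family is a group of microRNAs that repress growth genes through a shared seed, bases 2 to 8, and its mature sequences from RefSeq are shown with the seed in capitals. Of the 11 hairpin genes in the tables, 10 had a RefSeq mature 5p sequence, and all 10 carried the seed GAGGUAG.
let-7b: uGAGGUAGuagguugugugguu
let-7c: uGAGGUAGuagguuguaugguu
let-7d: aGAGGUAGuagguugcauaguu
let-7e: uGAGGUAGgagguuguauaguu
let-7a: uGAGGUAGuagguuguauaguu
The deposited values are those of the hairpin genes and are not levels of the mature arms.

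Against set II 5 of 11 let-7 genes rose, beside 0.169% of all genes, with a median difference of 1.18 over the 11. The family was looked at after these values were seen. Mirlet7b was at 36.3, 31.8, 31.8 and 28.1 FPKM after ketamine, 5.69, 5.60, 4.77 and 5.58 in set II and 10.6, 15.2, 18.3 and 25.5 in set I. Ketamine lay above all saline libraries and set I above set II, and the difference was 2.36 against set II (SE 0.0879, adjusted p 8.24e-06) and 1.63 against all saline (SE 0.383, adjusted p 0.156). Mirlet7c-1 (1.97, adjusted p 0.000217), Mirlet7c-2 (2.19, adjusted p 0.00115), mmu-let-7e (2.19, adjusted p 0.00198) and Mirlet7a-2 (1.32, adjusted p 0.044) also rose against set II. In these 4 genes ketamine overlapped set I, with 26.3 to 42.8 against 6.86 to 29 FPKM for Mirlet7c-1, 13.4 to 17.6 against 1.67 to 13.7 for Mirlet7c-2, 4.78 to 8.38 against 2.17 to 12 for mmu-let-7e and 7.21 to 9.51 against 2.21 to 12.3 for Mirlet7a-2. Their adjusted p against all saline was 0.114 to 0.341. Against all saline 1 of 10 tested rose, Mirlet7d, at 1.49 to 2.37 FPKM against 0 to 0.989 in saline (1.14, SE 0.183, adjusted p 0.0296), which did not pass against set II (1.18, adjusted p 0.0585).

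Of the genes higher against set II, Sncb, which encodes beta-synuclein, was at 11.6 to 16.1 FPKM after ketamine, 5.63 to 7.18 in set II and 8.67 to 16.1 in set I (1.05, adjusted p 0.00188, and 0.64, adjusted p 0.293, against all saline). Klf13, a zinc finger transcription factor, was at 7.94 to 8.71, 5.18 to 5.72 and 6.24 to 7.72 FPKM (0.55, adjusted p 0.00227, and 0.38, adjusted p 0.191). Both were named after their values were seen. For Sncb ketamine overlapped set I.

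The same drug was compared with saline set II in the PFCx, to ask which differences varied by tissue. There 95 of 35637 genes (0.267%) passed, 23 higher and 72 lower, and the ketamine difference varied between NAc and PFCx in 532 of 35111 genes (1.52%), larger in the NAc in 327 and smaller in 205, or 212 and 215 with each library rescaled to the same 75th percentile. Sgk1 had a difference of 0.44 in the PFCx (19.4 ± 1.35 against 14.0 ± 0.697 FPKM, SD, n = 4 each, adjusted p 0.0587), and that in the NAc was larger by 0.49 (SE 0.0908, adjusted p 0.0109). Tsc22d3 rose in the PFCx by 0.63 (adjusted p 0.0395), and the tissues differed by 0.29 (adjusted p 0.317). The difference of the tissues was 0.21 for Fkbp5 (SE 0.132, adjusted p 0.554) and 0.67 for Fos (SE 0.212, adjusted p 0.147). The direction in the PFCx was that of the NAc for these 4 genes.

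For Zfp386, Gm14435, Gm26909 and 2810474O19Rik the PFCx difference was negative, from −0.09 to −0.52 with an adjusted p of 0.186 to 0.712, and the tissues differed by 0.59 (adjusted p 0.00982), 0.90 (adjusted p 0.00976), 0.73 (adjusted p 0.00129) and 0.49 (adjusted p 0.00594). Rnu1a1 rose in the PFCx from 490.1 ± 35.9 to 931.3 ± 66.5 FPKM (SD, n = 4 each; 0.92, adjusted p 0.0122), while it fell in the NAc, and the tissues differed by −4.05 (SE 0.157, adjusted p 1.46e-09). Mirlet7b was at 10.7 ± 3.09 and 10.6 ± 2.09 FPKM in PFCx saline and ketamine (0.01, adjusted p 0.987), and the tissues differed by 2.35 (adjusted p 1.87e-05).

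**Figure D5:**
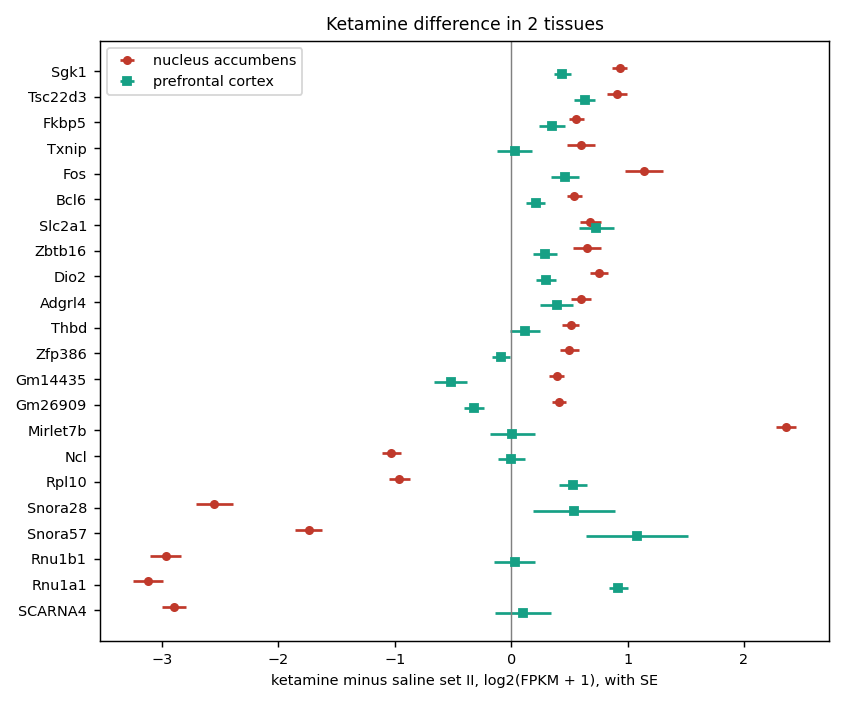
Difference of log2(FPKM + 1), ketamine minus saline set II, with SE, in the NAc (circles) and the PFCx (squares) for 22 genes. Sgk1, Tsc22d3, Fkbp5 and Fos lie to the right of 0 in both tissues, while Rnu1a1 lies at −3.12 in the NAc and 0.92 in the PFCx.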

How the data were processed

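The authors sequenced ribo-depleted total RNA on Ion PI chips, single-end, aligned the reads with TopHat 2.0.1 and Tmap and estimated FPKM and coverage per transcript with Cufflinks 2.2.1 on GRCm38 (mm10). The deposited tables give these FPKM and coverage values and no read counts. Depth was estimated from the ratio of the deposited coverage to FPKM of long transcripts, in gigabases, and more depth gives less error in low genes. FPKM values were summed per gene symbol, and features whose mean over the compared libraries reached 0.1 FPKM were kept. On log2(FPKM + 1), limma 3.58.1 (R 4.3.3) was fitted, with Benjamini-Hochberg adjustment over all features and a threshold of 0.05. Single genes were also tested by two-sided exact permutation over libraries. Figures and tables used Python 3.11.15 with numpy 2.4.6, pandas 2.3.3 and scipy 1.17.1. Gene borders are those of GENCODE vM21, which matched 111582 of 112714 transcripts.

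The genes, lists and tests were chosen with earlier results of these data known. Named genes were up to 12 in each direction with the lowest p among those past the threshold against all saline, with a mean FPKM of at least 1, outside the saline range and with an unadjusted p under 0.05 in the same direction against set II. In each of 30 lists, 9 of them cell type markers, the called members (up to 8) or otherwise the 2 with the lowest p were named, with up to 6 transcripts in each direction whose gene did not pass, the 2 Dclk1 transcripts with the lowest p, and up to 3 genes of each difference between tissues or drugs. Other genes were named after their values were seen, namely the small RNA families, let-7, the snoRNA host genes, Sncb and Klf13. On simulated data in which 200 genes were changed by 1 on the log2 scale, 182 were recovered against all saline with 10 others called, and 177 against set II with 6 others called. The changed genes were drawn from those with a saline mean above 1 on the log2 scale. Noise was independent and normal, and the simulated saline sets did not differ. Recovery of smaller changes, or in lower genes, was not simulated. Alternatives were another pseudocount, other filters, rescaling, a replicate block, other sets of libraries, each library left out, and long transcripts alone, the last chosen after seeing the data. Some results named by these rules are not reported here.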

Additional observations from a re-analysis of the deposited data

Results flagged for a closer look

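In 309 groups of 4 libraries, 20 held 1 library that stood apart from the other 3 by Dixon's test, which chance alone does in about 1 in 20 groups. Among genes named above, Bcl6 was at 2.92 FPKM in saline set II replicate 1, against 2.49 to 2.52 in the others, and Thbd at 1.41 in the same library, against 1.05 to 1.06. In set II replicate 3, Mirlet7b was at 4.77, mmu-let-7e at 0.00014 and Snhg1 at 755.9 FPKM. In ketamine, Nr3c1 (10.6) and Tbr1 (3.23) were low in replicate 4, Cldn5 (5.78) and Luc7l (15.6) high in replicate 2 and Grin3a (4.06) high in replicate 3. The other such values were Gm22519 at 19.5 in set II replicate 1, Luc7l at 12.5 in replicate 2, and Pdyn at 40.5 and Per1 at 9.3 in replicate 4 of set II. In set I they were Grin3a at 2.97 in replicate 4, Gsk3b at 23.8 in replicate 1, Dlg4 at 129.4 and Hba-a2 at 29 in replicate 3, and Rorb at 2.78 and Mt1 at 22.2 in replicate 2.

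The difference of ketamine from saline set II was tested between NAc and PFCx by limma, and 33 named genes passed, beside 1.52% of all genes. It was larger in the NAc by 0.49 for Sgk1 (adjusted p 0.0109), 0.49 for 2810474O19Rik, 0.59 for Zfp386, 0.63 for Aqp4, 0.73 for Gm26909, 0.9 for Gm14435 and 1.1 for Sncb. For the let-7 genes it was larger by 2.35 for Mirlet7b, 1.91 for Mirlet7c-1, 2.43 for Mirlet7c-2 and 2.26 for mmu-let-7e. For U1 genes the NAc minus PFCx value was −4.05 for Rnu1a1, −3.0 for Rnu1b1, −3.07 for Gm22042, −4.02 for Gm22068, −3.88 for Gm24305 and −3.12 for Gm26232. For snoRNA and scaRNA genes it was −3.09 for Snora28, −2.82 for Snora57, −2.62 for Snora73b, −3.84 for Snora74a, −3.61 for Gm22519 and −3.0 for SCARNA4. Rnu5g had −1.44, Gm22710 −2.01 and Gm28872 −3.66. Genes that hold small RNA genes, and Snhg4, for which GENCODE vM21 had no entry, had −1.57 for B930036N10Rik, −3.97 for Snhg1, −1.03 for Ncl, −1.49 for Rpl10, −1.6 for Eif4a1, −1.18 for Rps3 and −2.74 for Snhg4. The adjusted p of these 33 genes was between 1.46e-09 and 0.0361. Most named genes were picked by values from the same NAc libraries, so this count is no independent evidence of differences between tissues.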

How the results depend on the processing

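The 37 genes called against all saline became 18 with a pseudocount of 0.1, 12 with a replicate block, 3155 with saline set I alone, 539 with all 32 NAc libraries sharing the spread, 1027 with the saline sets as separate groups and 10 with long transcripts only. With each library left out they ranged from 13 to 51, and were 22, 13, 21 and 22 without ketamine replicates 1, 2, 3 and 4. The 264 genes against set II became 158 with a pseudocount of 0.1 and 25 with long transcripts only, were 176 with a replicate block, and ranged from 174, without ketamine replicate 2, to 250 with a library left out. The 19 transcripts against all saline became 7 with the replicate block, 40 with no filter, 647 with set I alone, 123 with the shared spread, 220 with separate saline groups and 11 with long transcripts only, and ranged from 10 to 30 (10 and 11 without ketamine replicates 1 and 3, and 30 and 11 without saline set I replicates 1 and 2). The 175 transcripts against set II became 68 with the replicate block and 14 with long transcripts only, and ranged from 108 to 174 (110 without ketamine replicate 2 and 108 without saline set II replicate 3). The 3314 genes that differed between the saline sets became 1504 with a mean FPKM of at least 1, 1424 with the replicate block and 1856 to 2778 with a library left out (2069, 1871 and 1856 without set II replicates 1, 2 and 3, and 1997, 1875 and 1966 without set I replicates 1, 2 and 4). The 532 genes of the tissue difference became 342 with a pseudocount of 0.1, 149 with long transcripts only and 358 to 683 with a library left out. Ketamine against venlafaxine gave 111 genes with a pseudocount of 0.1, 132 with the replicate block, 17 with long transcripts only and 136 to 218 with a library left out (138 and 141 without ketamine replicates 2 and 3, and 140 and 136 without venlafaxine replicates 2 and 3). Ketamine against mianserin gave 168, 169, 39 and 170 to 273 in the same order, with 170 without ketamine replicate 2. The long-transcript setting tests fewer features. For the other settings the cause was not tested.

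Sgk1, Tsc22d3, Fkbp5 and Fos passed against all saline under all 22 alternatives, Snora28 under 21 of 21, Adgrl4 under 20, Dio2 under 18, Thbd and B930036N10Rik under 16, Zfp386 and Gm14435 under 15, Txnip under 9, Gm26909 under 8 and 2810474O19Rik under 7. Of 21 alternatives, Rnu1b1 and Rnu5g passed under 18, Snora74a under 16 and Gm22042 under 14, and Mirlet7d passed under 12 of 20. Against set II, Sgk1, Tsc22d3, Fkbp5, Bcl6 and Dio2 passed under all 16, Fos and B930036N10Rik under 15, Slc2a1 under 14, Rps3 and Thbd under 13, Hcn2 under 11, Adgrl4 and Mal under 9, Kcnn2 and Gm26909 under 7, Mobp, Zfp386 and Gas5 under 6, Dusp4 under 4, and Arrdc2, Gm14435 and Zbtb16 under 3. Of 15 alternatives, Rnu5g and mmu-let-7e passed under 14, Gm22710 under 13, Snora74a under 7, Mirlet7a-2 under 6 and Mir5136 under 5. Against saline set I alone the difference was reversed for Gm22519 (0.20), Snhg1 (0.23), Ncl (0.01), Eif4a1 (0.31) and Gas5 (0.12). With a library left out, uncalled genes near 0 changed sign against set II, with a range of −0.11 to 0.00 for C1qa, −0.12 to 0.02 for Cirbp and −0.35 to 0.01 for Mt1. Same-numbered libraries did not deviate together, with correlations of −0.0363 to 0.102 between ketamine and set II and of −0.264 to 0.013 between ketamine and set I. These few values cannot show whether libraries were handled in pairs, which the labels do not say. Depth limits low genes, since without counts a value near 0 has no interval.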
